A study of Drosophila montana with 9 samples.

Results

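Probes named after the genes *Adh*, *Pgm*, *Gapdh1* and *Gapdh2*, which encode enzymes of energy metabolism, were followed on a candidate gene microarray of the malt fly *Drosophila montana*. All probes used that carried the name of one of these genes were taken, without regard to their measured values, and they made up 7 of the 197 probes used. The array held 101 candidate genes and 7 housekeeping genes, and these 4 genes are among them. *Adh*, *Gapdh1* and *Gapdh2* had 2 probes each and *Pgm* had 1 probe. RNA came from the whole bodies of females of one isofemale line, O3F66 from Oulanka, which had been cultured at 19 °C in continuous light, and each of the 3 samples per group pooled 13 females and was run on 1 array. Diapausing females were 14 days old and had been kept in a 16 h day at 16 °C, and reproducing females were 14 days old and had been kept in 24 h of light at 16 °C. Young females were 1 day old and came straight from the culture in 24 h of light at 19 °C. Day length therefore separated diapausing from reproducing females, while age, temperature and time on the vial medium all separated both groups from young females and cannot be told apart here. The labels do not say that the samples came from separate cultures, and no examination of the ovaries of the females in the pools was used, so that p-values describe the spread between these samples of 1 line only. In RNA from whole bodies, fewer cells of a type and less RNA per cell cannot be told apart.

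Adult reproductive diapause is an arrest of the ovaries in which insects stop making eggs and live on reserves of fat and carbohydrate. Phosphoglucomutase, encoded by *Pgm*, interconverts glucose 1-phosphate and glucose 6-phosphate and so joins the glycogen store to glycolysis. Glyceraldehyde-3-phosphate dehydrogenase carries out a central, energy-conserving step of glycolysis and is encoded in *D. melanogaster* by *Gapdh1* and *Gapdh2*, which are widely used as reference genes. Alcohol dehydrogenase, encoded by *Adh*, oxidises ethanol and other alcohols and is abundant in the fat body of adult *D. melanogaster*. *Adh* (CG3481) was placed on the array as a diapause gene, *Pgm* (CG5165) as a phototransduction gene, and *Gapdh1* (CG12055) and *Gapdh2* (CG8893) as housekeeping genes.

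The probes were 60 bases long, and 5 of them are shown because the strand they read bears on what the values measure. The labelling kit makes cRNA, which is complementary to mRNA and pairs with a probe that reads as the mRNA does. Capitals mark the bases of *Gapdh2* probe 2 that are the reverse complement of bases in *Gapdh1* probe 1, and the other sequences have no marked part.
Adh probe 1: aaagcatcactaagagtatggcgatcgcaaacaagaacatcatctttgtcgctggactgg
Adh probe 2: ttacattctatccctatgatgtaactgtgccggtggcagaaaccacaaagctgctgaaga
Pgm probe 1: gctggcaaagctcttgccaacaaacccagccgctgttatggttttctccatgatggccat
Gapdh2 probe 1: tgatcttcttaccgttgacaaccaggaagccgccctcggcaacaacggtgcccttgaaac
Gapdh2 probe 2: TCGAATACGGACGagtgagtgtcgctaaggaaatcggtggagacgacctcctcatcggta

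The first 13 bases of *Gapdh2* probe 2 were the reverse complement of the first 13 bases of *Gapdh1* probe 1, and the longest match between any other probes of these genes, on either strand, was 8 bases. Neither the annotation used here nor the array design gave the strand of a probe or its position in the genome, and the strand was therefore read from the translated sequence, set against the known proteins of other species. As printed, *Adh* probe 1 holds the start of the Adh protein and *Adh* probe 2 an Adh reading frame, and both *Gapdh1* probes likewise read as their mRNA does. Both *Gapdh2* probes spell GAPDH protein only as the reverse complement of what is printed, so that they are complementary to the mRNA and would not pair with cRNA made from it. What their signal measures is not settled, and *Gapdh2* values below are those of the probes of that name, not a level of its mRNA. The *Pgm* probe had open reading frames on both strands (2 as printed and 2 as the reverse complement). Only its reverse complement holds a stretch that resembles Pgm protein, so that this probe also appears complementary to its mRNA. *Pgm* values below are likewise those of the probe of that name, not a level of its mRNA. The GC content of the 5 probes was 45.0% for both *Adh* probes, 51.7% for *Pgm* and 55.0% and 53.3% for the *Gapdh2* probes. Signal alone does not tell the strands apart on this array: of 6 genes with a pair of probes that overlap on opposite strands, 5 had both probes well above background on 4 or more of the 9 arrays, and *Hsc70-4*, a heat shock cognate gene, had both above background on all 9.

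All 7 probes of the 4 genes were well above background on all 9 arrays, and none was saturated. Per array, between 120 and 147 of the 197 probes were well above background. The arrays differed in overall brightness. The 75th percentile of the background-subtracted and detrended intensity was 746, 359 and 446 on the arrays of diapausing replicates 27, 42 and 43. It was 1006, 848 and 398 on those of reproducing replicates 22, 23 and 40. On those of young replicates 12, 16 and 17 it was 749, 792 and 829.7. On the variance-stabilized (VSN) log2 scale used here first, 94 genes lay above their group mean on diapausing replicate 27, against 14 and 17 on diapausing replicates 42 and 43. On reproducing replicate 40 they were 25, against 84 and 77 on reproducing replicates 22 and 23, and its probe intensities also had the lowest median correlation with its own group (0.927, against 0.959 to 0.989 on the other 8 arrays). Because of this, values are given on 2 scales. The first is the VSN log2 value, in which the spike-in RNA helps to set the scale of each array. The second is log2 of the background-subtracted and detrended intensity divided by the 75th percentile of its array. The median difference of all genes was -0.02 with VSN and 0.27 with the 75th percentile for diapausing against reproducing females, -0.39 and 0.32 for diapausing against young females, and -0.14 and 0.10 for reproducing against young females. Each difference is therefore also given relative to that median.

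Relative to the median gene, *Adh* and the *Pgm* probe were higher in diapausing females than in reproducing and young females under all 15 settings. These were processing settings tried with all the arrays or without reproducing replicate 40. *Gapdh1* was higher in diapausing than in reproducing females, and lower in reproducing than in young females, under the same 15 settings. Such a direction was common on the array: of the 94 genes with a value in all 15 settings, 30.9% lay above the median in all of them for diapausing against reproducing females, 29.8% above it for diapausing against young females and 36.2% below it for reproducing against young females. *Gapdh2* lay on both sides of the median over the settings in each comparison. The 3 comparisons share their arrays and are not independent of each other. With a difference called where limma gave an adjusted p under 0.05 together with more than a 2-fold change, VSN called 0 of the 12 differences of these genes, 3 differences for each gene. Their unadjusted p was under 0.05 in 1 of the 12. VSN called 1, 2 and 8 genes of the whole array for diapausing against reproducing, diapausing against young and reproducing against young females (0.926%, 1.85% and 7.41%). On the 75th percentile scale 4 of the 12 differences were called, all of them higher in diapausing females: *Gapdh1* and *Pgm* against reproducing females, and *Adh* and *Pgm* against young females. On that scale 9, 9 and 20 genes of the whole array were called (8.33%, 8.33% and 18.5%), and those called higher in diapausing females were 6 genes against reproducing females (5.56%) and 8 against young females (7.41%). The split of calls into higher and lower was 1 and 0, 0 and 2, and 2 and 6 with VSN in the 3 comparisons, and 6 and 3, 8 and 1, and 11 and 9 with the 75th percentile. Tested probe by probe, 0 of the 21 differences of the 7 probes were called with VSN, against 1.52%, 3.05% and 4.57% of all probes in the same order of comparisons, and 5 of 21 on the 75th percentile scale, against 6.09%, 5.08% and 16.8% of all probes. The samples, the genes and the test were the same on both scales. The intensity column, the treatment of background, the transformation and the scaling differed.

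**Figure D1:**
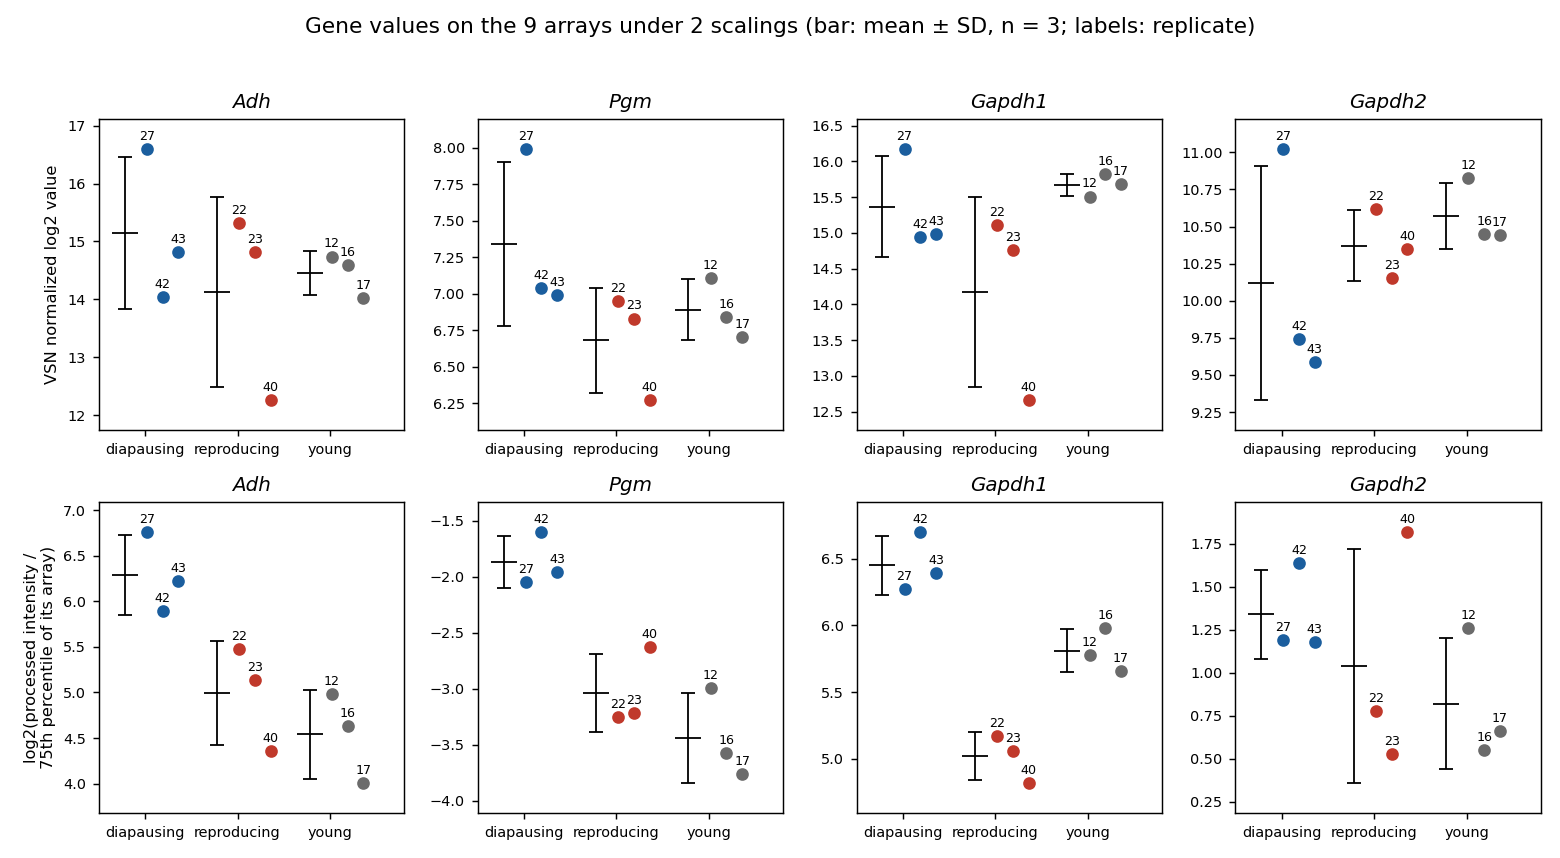
Values of the 4 genes on each array (points, numbered by replicate) in diapausing, reproducing and young females, with the group mean and SD (n = 3) as bars. The upper row gives the VSN log2 value and the lower row log2 of the processed intensity over the 75th percentile of its array. In the lower row *Adh*, *Pgm* and *Gapdh1* of diapausing females lie above those of reproducing females without overlap, as 25.0% of all genes do. *Gapdh1* ranged there from 6.27 to 6.70 against 4.82 to 5.17.

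*Adh* had VSN log2 values of 16.59, 14.04 and 14.81 in diapausing females (replicates 27, 42 and 43), 15.32, 14.81 and 12.26 in reproducing females (replicates 22, 23 and 40), and 14.74, 14.59 and 14.02 in young females (replicates 12, 16 and 17). The groups overlapped, with diapausing replicate 27 highest and reproducing replicate 40 lowest of all 9 arrays. The value of diapausing replicate 42 is partly imputed, because its spot of *Adh* probe 2 was marked as an outlier and was filled from probe 1 and the usual distance between the 2 probes. The means were 15.15 ± 1.31 in diapausing, 14.13 ± 1.64 in reproducing and 14.45 ± 0.38 in young females (SD, n = 3 each). *Adh* was 1.01 ± 0.86 (SE) higher on the log2 scale in diapausing than in reproducing females, with a 95% interval from -0.96 to 2.99 (limma, adjusted p = 0.684), and 0.70 ± 0.86 higher than in young females (interval -1.28 to 2.67, adjusted p = 0.703). Reproducing females differed from young females by -0.32 ± 0.86 (adjusted p = 0.892). None of these differences exceeded the spread between replicates, and the intervals leave room for changes of either sign. Without reproducing replicate 40 diapausing minus reproducing females gave 0.07 (0.20 relative to the median gene), and without diapausing replicate 27 diapausing minus young females gave 0.00 (0.64 relative to the median gene).

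On the 75th percentile scale, *Adh* stood at 6.76, 5.89 and 6.22 in diapausing females, at 5.48, 5.14 and 4.36 in reproducing females and at 4.98, 4.63 and 4.01 in young females. All 3 diapausing arrays lay above all 6 others, and on this scale 25.0% of all genes lay above reproducing females without overlap in diapausing females and 24.1% above young females. *Adh* rose in diapausing over young females by 1.75 ± 0.39 (SE; limma, adjusted p = 0.0198), a 3.36-fold difference, and was 1.30 ± 0.39 higher than in reproducing females (adjusted p = 0.0633, not called). With slide as a block on this scale, an alternative chosen after the data were seen, both differences were called (adjusted p = 0.0167 against young and 0.0348 against reproducing females). Within each of the 3 slides, which held 1 array of each group, diapausing females were higher than young females by 1.78, 1.26 and 2.21 on this scale, and than reproducing females by 1.28, 0.75 and 1.86. With VSN the same differences within slides were 1.85, -0.55 and 0.79 against young females and 1.27, -0.78 and 2.55 against reproducing females, so that slide 2, which held diapausing replicate 42, went the other way. The call against young females on the 75th percentile scale was lost without diapausing replicate 27 (difference 1.52, adjusted p = 0.0706), without diapausing replicate 43 (1.78, 0.0547), without young replicate 16 (1.80, 0.0573) and without young replicate 17 (1.49, 0.0777). Relative to the median gene, *Adh* was higher in diapausing females by 1.04 with VSN and 1.03 with the 75th percentile against reproducing females (range over the 15 settings 0.31 to 1.52) and by 1.09 and 1.43 against young females (0.75 to 1.43). For reproducing against young females it was -0.18 with VSN and 0.35 with the 75th percentile, and the sign changed between settings. In order of the difference among all genes, diapausing over young females, *Adh* was number 4 with VSN and number 3 with the 75th percentile.

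The probe named *Pgm* gave the dimmest signal of the 4 genes. Its background-subtracted and detrended intensity was 181, 118 and 115 in diapausing females. It was 106, 90.7 and 64.4 in reproducing females and 94.3, 66.7 and 61.2 in young females. Before scaling between arrays, diapausing females had the 3 highest intensities, the lowest of them 115 against 106 on reproducing replicate 22. The share of all genes that separate in this way before scaling was not determined. On the VSN scale *Pgm* stood at 7.99, 7.04 and 6.99 in diapausing, 6.95, 6.83 and 6.27 in reproducing and 7.11, 6.84 and 6.70 in young females. The diapausing and reproducing arrays did not overlap, as for 4 genes in all that lay higher in diapausing females (3.70%), whereas young replicate 12 lay within the range of the diapausing arrays. Diapausing differed from reproducing females by 0.66 ± 0.33 (SE; 95% interval -0.11 to 1.42; limma, adjusted p = 0.640) and from young females by 0.45 ± 0.33 (interval -0.31 to 1.22; adjusted p = 0.550), and reproducing females differed from young females by -0.20 ± 0.33 (adjusted p = 0.776). Without reproducing replicate 40 diapausing minus reproducing females gave 0.38 (0.51 relative to the median gene). With VSN, diapausing females were higher within each of the 3 slides, by 1.04, 0.21 and 0.72 against reproducing and by 0.88, 0.20 and 0.28 against young females.

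On the 75th percentile scale, *Pgm* stood at -2.05, -1.60 and -1.96 in diapausing females, at -3.25, -3.22 and -2.63 in reproducing females and at -2.99, -3.57 and -3.76 in young females. The diapausing arrays again lay above all others, as 25.0% of all genes did against reproducing and 24.1% against young females. The value of the *Pgm* probe rose by 1.17 ± 0.30 over reproducing females (2.24-fold, limma adjusted p = 0.0400). Over young females it rose by 1.57 ± 0.30 (2.97-fold, limma adjusted p = 0.0124). Within slides the differences were 1.21, 1.62 and 0.67 against reproducing females and 0.94, 1.97 and 1.80 against young females. With slide as a block the call against reproducing females was lost (adjusted p = 0.0701) and that against young females remained (0.0317). The call against reproducing females stood near its threshold: it was also lost without diapausing replicate 42 (adjusted p = 0.133) or 43 (0.0837), without reproducing replicate 22 (0.0941) or 23 (0.0891) and without young replicate 16 (0.0702) or 17 (0.0542), and remained without diapausing replicate 27, reproducing replicate 40 or young replicate 12. Against young females, leaving out young replicate 16 (adjusted p = 0.0550) or 17 (0.0582) ended the call, and it remained without any other single array. Relative to the median gene, *Pgm* was higher in diapausing females by 0.68 with VSN and 0.90 with the 75th percentile against reproducing females (0.57 to 1.12 over the 15 settings), and by 0.84 and 1.25 against young females (0.65 to 1.25). With 1 probe, *Pgm* has no second probe to set this against. Because this probe appears complementary to the mRNA, a rise of *Pgm* mRNA was not shown.

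*Gapdh1* had VSN log2 values of 16.17, 14.95 and 14.98 in diapausing females, 15.11, 14.76 and 12.66 in reproducing females and 15.51, 15.82 and 15.68 in young females. All reproducing arrays lay below all young arrays, and replicate 40 lay far below the rest. The means were 15.37 ± 0.70 in diapausing, 14.17 ± 1.33 in reproducing and 15.67 ± 0.15 in young females (SD, n = 3 each). Diapausing differed from reproducing females by 1.19 ± 0.62 (SE; 95% interval -0.23 to 2.62; limma, adjusted p = 0.640) and from young females by -0.31 ± 0.62 (interval -1.73 to 1.12; adjusted p = 0.791). Reproducing females differed from young females by -1.50 ± 0.62 (interval -2.93 to -0.07; adjusted p = 0.197), the only one of the 12 differences with an unadjusted p under 0.05, as 22 genes had in that direction (20.4% of the array). In 26 genes (24.1% of the array) the reproducing arrays lay below the young arrays without overlap, as they did here. Without reproducing replicate 40, diapausing minus reproducing females gave 0.40 and reproducing minus young females -0.74, which are 0.54 and -0.74 relative to the median gene.

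On the 75th percentile scale the 3 groups of *Gapdh1* stood apart. The values were 6.27, 6.70 and 6.39 in diapausing females, 5.17, 5.06 and 4.82 in reproducing females and 5.78, 5.98 and 5.66 in young females. Of all genes, 25.0% lay higher in diapausing than in reproducing females without overlap on this scale. In the same way 24.1% lay higher in diapausing than in young females, and 17.6% lower in reproducing than in young females. As the mean of the 2 probes, replicate 40 no longer lay far from the other reproducing arrays. Its probes still stood further apart. The detrended intensities of probes 1 and 2 were 24753 and 5126 on replicate 40. They were 51343 and 25573 on replicate 22, and 41804 and 19068 on replicate 23. *Gapdh1* rose in diapausing over reproducing females by 1.43 ± 0.24 (SE; 2.70-fold; limma, adjusted p = 0.00847), and this call remained when any 1 of the 9 arrays was left out, with differences between 1.31 and 1.52 and adjusted p from 0.0136 to 0.0391, and with slide as a block (adjusted p = 0.0348). The differences within slides were 1.10, 1.64 and 1.56. Both probes were called when probes were tested one by one, at 1.34 ± 0.26 (adjusted p = 0.0240) for probe 1 and 1.53 ± 0.31 (adjusted p = 0.0258) for probe 2. Diapausing females were 0.64 ± 0.24 higher than young females (adjusted p = 0.143) and reproducing females differed from young females by -0.79 ± 0.24 (adjusted p = 0.0375), which passed the threshold of p but not that of a 2-fold change. With the normexp background correction and the same scaling, both differences of reproducing females were called, at 1.60 for diapausing against reproducing (adjusted p = 0.00582) and -1.06 for reproducing against young females (adjusted p = 0.0336). Relative to the median gene, diapausing minus reproducing females gave 1.22 with VSN and 1.16 with the 75th percentile (0.39 to 1.42 over the 15 settings), and reproducing minus young females -1.36 and -0.89 (-1.41 to -0.35). For diapausing against young females the values were 0.08 and 0.33, and below 0 in 2 of the 15 settings.

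**Figure D2:**
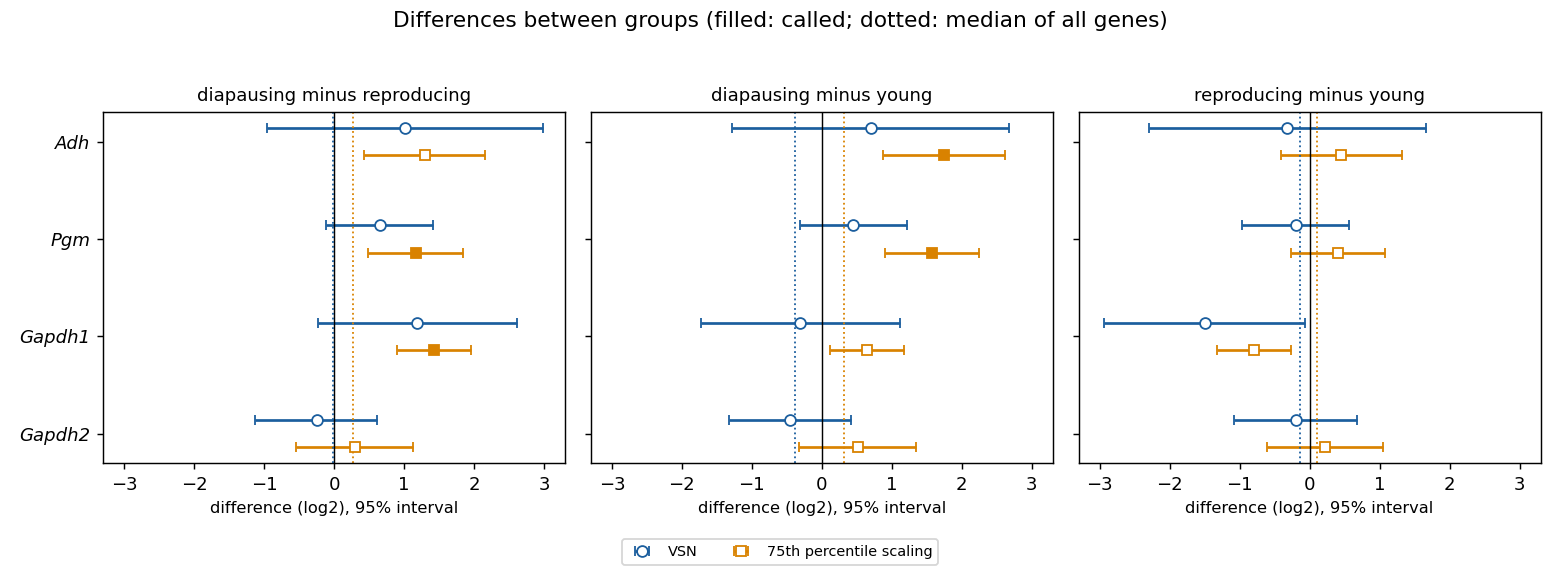
Differences between groups for the 4 genes on the VSN scale (circles) and the 75th percentile scale (squares), on the log2 scale with 95% intervals, filled where called. Dotted lines mark the median difference of all genes, and the intervals of *Gapdh1* for diapausing minus reproducing females run from -0.23 to 2.62 with VSN and from 0.90 to 1.96 with the 75th percentile.

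The probes named *Gapdh2* had VSN log2 values of 11.02, 9.74 and 9.59 in diapausing females, 10.62, 10.15 and 10.35 in reproducing females and 10.83, 10.45 and 10.44 in young females. The groups overlapped in all 3 comparisons, with diapausing replicate 27 above and diapausing replicates 42 and 43 below every other array. The differences were -0.25 ± 0.38 (SE; 95% interval -1.13 to 0.62) for diapausing against reproducing, -0.46 ± 0.38 (-1.33 to 0.42) for diapausing against young and -0.20 ± 0.38 (-1.08 to 0.68) for reproducing against young females, with limma adjusted p of 0.777, 0.558 and 0.831. On the 75th percentile scale all 3 had the opposite sign (0.30, 0.52 and 0.22, adjusted p = 0.624, 0.415 and 0.695), and relative to the median gene they lay between -0.33 and 0.58, between -0.28 and 0.39 and between -0.47 and 0.46 over the 15 settings. The intervals reach past a 2-fold change, and equal levels were not shown.

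**Figure D3:**
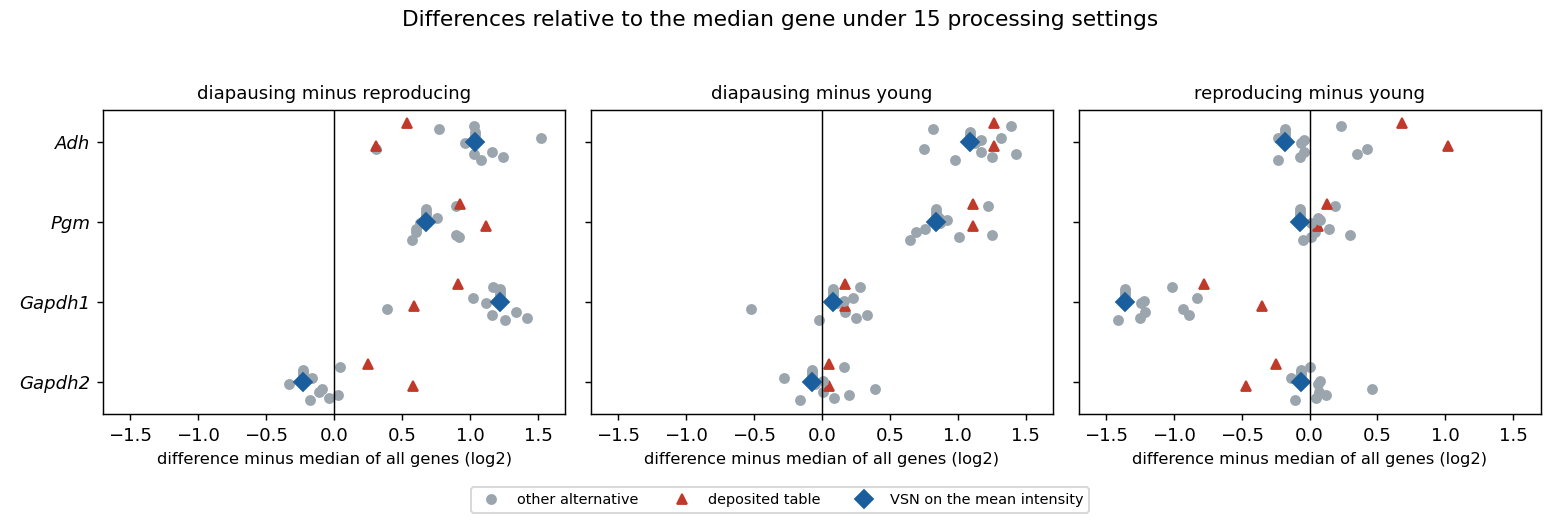
Difference of each gene between groups minus the median difference of all genes (log2, horizontal axis) under VSN on the mean intensity (diamond) and 14 alternatives, of which the deposited table with all arrays and without reproducing replicate 40 are drawn as triangles. *Adh* and *Pgm* lie right of 0 in both comparisons of diapausing females and *Gapdh1* lies left of 0 for reproducing minus young females (-1.41 to -0.35), while *Gapdh2* lies on both sides of 0 in each comparison.

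The 2 probes of a gene moved together across the arrays, with a Pearson correlation of the VSN values of 0.98 over 8 arrays for *Adh*, 0.96 over 9 arrays for *Gapdh1* and 0.86 over 9 arrays for *Gapdh2*. These points share the scale of their array. For *Gapdh1*, probe 1 minus probe 2 was 1.21, 1.65 and 1.66 in diapausing females, 1.29, 1.38 and 3.51 in reproducing females and 1.15, 1.29 and 1.33 in young females, so that reproducing replicate 40 stood apart. For *Adh* the same array stood apart (-0.70, against -1.90 to -1.53 on the other 7 arrays with both spots). The distance between the *Gapdh2* probes was 1.13, 0.54 and 0.62 in diapausing females, 1.16, 0.78 and 0.44 in reproducing females and 1.11, 1.29 and 1.26 in young females, and no array stood apart as reproducing replicate 40 did for the other genes. Of its 2 probes, probe 1 differed by -0.68 ± 0.45 and probe 2 by -0.23 ± 0.35 between diapausing and young females with VSN (SE, adjusted p = 0.556 and 0.813 over all 197 probes).

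**Figure D4:**
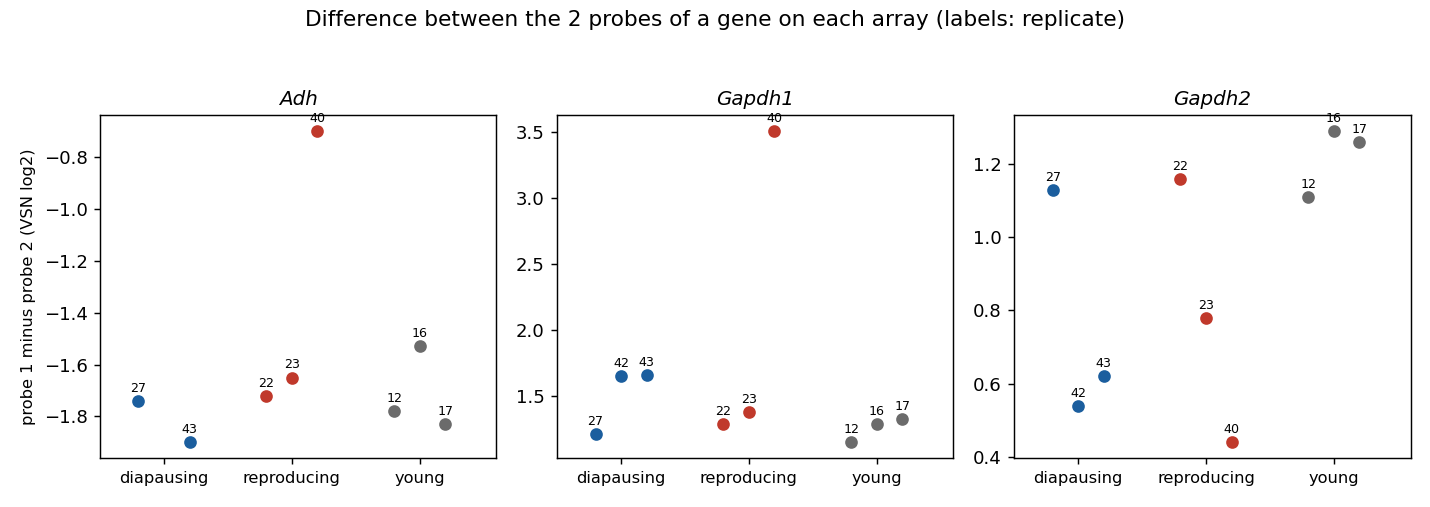
Probe 1 minus probe 2 on the VSN log2 scale for the 3 genes with 2 probes, by group, each point 1 array numbered by replicate. The position on the vertical axis carries no meaning of its own, but reproducing replicate 40 stands away from the other arrays for *Gapdh1* (3.51, against 1.15 to 1.66) and *Adh* (-0.70, against -1.90 to -1.53).

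Reproducing replicate 40 also differed in what detrending within the array did to these spots. The detrended value was 3.01 times the background-subtracted value at *Adh* probe 2 on that array and 2.29 times at *Gapdh1* probe 2, against 0.994 to 1.21 and 1.02 to 1.21 on the other 8 arrays. At the other 5 probes the factor on replicate 40 was between 0.671 and 0.964. The raw mean intensity of *Gapdh1* probe 2 was 2283 on replicate 40, against 17762 to 38425 on the other arrays, and its detrended intensity was 5126, against 19068 to 40927. Detrending thus took back part of the deficit of replicate 40 at *Adh* probe 2 and *Gapdh1* probe 2. At *Adh* probe 1, where replicate 40 was also the lowest array, it went the other way. The factor there was 0.671, against 0.799 to 0.923 on the other 8 arrays. VSN on the detrended intensity was an alternative chosen after the data were seen. With it the *Gapdh1* difference between diapausing and reproducing females was 0.95 (limma, adjusted p = 0.480) and was not called. Which step of the processing sets the 2 scales apart was not tested.

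The within-group SD of the VSN value, pooled over the 3 groups, was 1.23 for *Adh*, 0.87 for *Gapdh1*, 0.49 for *Gapdh2* and 0.40 for *Pgm*, and its median over all genes was 0.50. *Adh* was number 8 and *Gapdh1* number 20 of all genes in order of this spread. Without reproducing replicate 40 the SD of *Gapdh1* was 0.47 (number 51) and that of *Adh* 0.88 (number 10), so that the spread of *Gapdh1* rested largely on that array. Of the 5 other genes placed on the array as housekeeping genes, which encode translation factors (*Ef1alfa48D* and *eIF-4a*) and ribosomal proteins (*RpL11*, *RpL19* and *RpL27A*), limma called 0 in any comparison on either scale, and the unadjusted p was under 0.05 in 1 of 15 differences with VSN (*RpL19*, reproducing against young females, -1.30) and in 6 of 15, of 4 genes, on the 75th percentile scale. Whether the *RpL27A* probe reads that gene is in doubt, because its label in the scanner files is Rps27A.

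The genes whose VSN values were most like those of each enzyme were sought among the 67 genes with at least 1 probe well above background on every array, by the Pearson correlation over the 9 arrays. For *Adh* these were *Pgm* (0.89), *Arr1* (0.88) and *ninaE* (0.84), and for *Pgm* they were *Adh* (0.89), *Dca* (0.84) and *per* (0.79). *Arr1* encodes an arrestin and *ninaE* the main rhodopsin of *D. melanogaster* photoreceptors, *Dca* is known for its response to cold in that species, and *per* is a clock gene. For *Gapdh1* they were *Arr2* (0.97), *ninaE* (0.95) and *Ankyrin* (0.94), of which *Arr2* encodes the other photoreceptor arrestin. For *Gapdh2* they were the heat shock genes *Hsp68* (0.93) and *Hsc70-3* (0.84) and the kinase gene *sgg* (0.86). The 9 points share the brightness of their array, and reproducing replicate 40 weighed on the values for *Gapdh1*: without it the correlations were 0.84 with *Arr2*, 0.73 with *ninaE* and 0.77 with *Ankyrin*. For *Gapdh2* they were 0.94, 0.84 and 0.86 without that array, in the order *Hsp68*, *Hsc70-3* and *sgg*. For *Adh* they were 0.85 with *Pgm*, 0.69 with *Arr1* and 0.58 with *ninaE*, and for *Pgm* 0.85 with *Adh*, 0.80 with *Dca* and 0.75 with *per*.

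Because photoreceptor genes were among those most like *Gapdh1*, a list of 11 of them is given beside it. Their summed background-subtracted and detrended intensity lay between 97549 and 240203 in diapausing females. It lay between 21058 and 185985 in reproducing females and between 132831 and 166255 in young females. The lowest sum was on reproducing replicate 40 and the highest on diapausing replicate 27. All 11 genes were well above background on at least 1 array and 8 of them on all 9. With VSN their median difference was 0.64 for diapausing against reproducing, -0.80 for diapausing against young and -1.77 for reproducing against young females, against -0.02, -0.39 and -0.14 over all genes, and 0 of the 11 were called in any comparison. A list of 8 genes with transcripts in the germline or the egg had a median difference of -1.01 for diapausing against reproducing females. It was -0.45 for diapausing against young and 0.62 for reproducing against young females. Their summed intensities were 4171 to 11718 in diapausing, 10261 to 24244 in reproducing and 8442 to 10316 in young females. Only 1 of the 8 was called in any comparison, for reproducing against young females. Of 7 neuronal genes, 1 was well above background on all 9 arrays and 2 on none, and their median difference was -0.19 between diapausing and reproducing, -0.47 between diapausing and young and -0.24 between reproducing and young females, with 0, 1 and 2 of the 7 called. The part of cell composition in the values of the enzymes was not tested.

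Of 4 other genes of energy metabolism and nutrient signalling on the array, *CoI*, which encodes a subunit of mitochondrial cytochrome c oxidase, was the one called in any comparison on the 75th percentile scale. Its VSN values were 16.22, 15.05 and 15.03 in diapausing females, 15.22, 15.07 and 14.03 in reproducing females and 16.06, 16.24 and 16.12 in young females, so that all reproducing arrays lay below all young arrays. It differed by 0.66 ± 0.42 (SE; limma, adjusted p = 0.640) for diapausing against reproducing by -0.71 ± 0.42 (adjusted p = 0.457) for diapausing against young and by -1.37 ± 0.42 (adjusted p = 0.0918) for reproducing against young females. On the 75th percentile scale *CoI* rose in diapausing over reproducing females by 1.23 ± 0.23 (adjusted p = 0.0102) and differed by -0.93 ± 0.23 between reproducing and young females (adjusted p = 0.0192, below the 2-fold threshold). For diapausing against young females the sign changed with the scale, to 0.30 ± 0.23 (adjusted p = 0.430). The insulin receptor gene *InR*, the phosphoinositide 3-kinase gene *Pi3K92E* and the kinase gene *sgg* act in or below insulin signalling. They were called in 0 of their comparisons on either scale, with VSN differences between -0.61 and 0.49. Of the 4 genes of this list, 2 were well above background on all 9 arrays and 1 on none. Equal levels were therefore not shown. The median difference of the 4 genes with VSN was 0.00 for diapausing against reproducing, -0.37 for diapausing against young and -0.22 for reproducing against young females.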

How the data were processed

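Females of *D. montana* were compared on 9 one-colour arrays, 3 per group. As deposited, the scanner files hold intensity values from Feature Extraction (9.5.1.1 in the file headers): the mean intensity of each spot and an intensity after background subtraction and detrending within the array. A further table that the authors deposited, of processed intensity values on a linear scale, served only as an alternative. Its normalization is not settled here, and for reproducing replicate 40 it follows the scanner values less closely than for the others (correlation across probes 0.916, against 0.998 or more). Its column medians were 356, 82.0 and 118 in diapausing, 251, 215 and 238 in reproducing and 182, 266 and 236 in young females, in the replicate order of the text.

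Spots marked as outliers were dropped (3 of experimental probes and 159 of spike-ins), repeated spots of 1 probe were combined as their mean, and in R 4.3.3 VSN was refitted on the mean intensity of 197 experimental probes and 200 spike-in spots (trimming quantile 0.5, 5 slices, 7 rounds), after the study's methods, which do not name the intensity column. A gene's value is the mean log2 value of its probes, with a missing spot filled by an additive fit of probe and array. limma 3.58.1 was fitted to all genes on the 9 arrays, and p-values were adjusted by Benjamini-Hochberg across genes, or across the 197 probes. The groups were read from abbreviations in the labels. The script was tested on simulated data. Plots were made in Python 3.11.15 with matplotlib 3.10.9. The genes were the 4 enzymes, for each the 3 genes with the highest correlation, and listed genes called or with an unadjusted p under 0.05. The genes and the lists of other genes were chosen with earlier results of these data known. The submitters' processing notes name limma, with no version. The precision is limited by 3 arrays per group.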

Additional observations from a re-analysis of the deposited data

How the results depend on the processing

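Of the 168 values of *Adh*, *Pgm*, *Gapdh1* and *Gapdh2* under 14 alternatives, 141 kept their direction and stayed uncalled, 21 reversed and 6 were called. Groups are abbreviated here as D (diapausing), R (reproducing) and Y (young), and values are log2 differences. No paired analysis was possible because the groups share no replicate numbers. The slide, which held 1 array of each group, was fitted as a block: with VSN this gave no call among the 12 differences. The block on the 75th percentile scale, chosen after seeing the data and not among the 14, gave calls for *Adh* D against R (1.30) and D against Y (1.75), *Pgm* D against Y (1.57) and *Gapdh1* D against R (1.43) but not for *Pgm* D against R (1.17). Its estimates equal those without the block, so that the same 6 differences are reversed (0.45, 0.40, 0.64, 0.30, 0.52 and 0.22). It called 10, 9 and 18 genes (D against R, D against Y and R against Y), 2 probe differences of the 4 genes and 1 other energy and nutrient gene.

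Scaling the processed intensity to the 75th percentile gave calls for *Adh* D against Y (1.75), *Pgm* D against R (1.17) and against Y (1.57) and *Gapdh1* D against R (1.43). It reversed *Adh* R against Y (0.45), *Pgm* R against Y (0.40), *Gapdh1* D against Y (0.64) and *Gapdh2* D against R (0.30), D against Y (0.52) and R against Y (0.22). Normexp with that scaling gave calls for *Gapdh1* D against R (1.60) and R against Y (-1.06), and reversed *Adh* (0.12) and *Pgm* (0.19) R against Y, *Gapdh1* D against Y (0.54) and *Gapdh2* in all 3 comparisons (0.15, 0.37 and 0.22). Normexp with quantile normalization reversed *Adh* (0.45) and *Pgm* (0.16) R against Y and *Gapdh2* D against Y (0.39) and R against Y (0.49). The deposited table reversed *Adh* D against R (-0.17) and R against Y (0.92) and *Gapdh2* D against R (0.10), and without reproducing replicate 40 it reversed *Adh* (0.67) and *Pgm* (0.12) R against Y. The cause was not tested.

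Counts of called genes, 1 with VSN for D against R, were 0 with VSN on spike-ins alone, with dim probes left out, with only the 2 groups compared, with slide as a block, with VSN on the processed intensity and with the deposited table without replicate 40, and 9 with the 75th percentile, 5 with normexp and the 75th percentile, 4 with normexp and quantile normalization and 2 with the brightest probe. For D against Y (2 with VSN) they were 0 with spike-ins alone, normexp and quantile normalization, only the 2 groups or slide as a block, 9 with the 75th percentile, 6 with the deposited table and 5 with the brightest probe. For R against Y (8 with VSN) they were 20 with the 75th percentile, 5 with only the 2 groups, 4 with slide as a block and 4 with the deposited table without replicate 40. Among the probes of the 4 genes 0 were called with VSN and 5 with the 75th percentile, with or without normexp. Of the other energy and nutrient genes 1 was called with a trimming quantile of 0.9 and with the 75th percentile, with or without normexp, and of the other housekeeping genes 1 with the deposited table.

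With each array left out in turn, on both scales together, *Adh* ranged from 0.07 to 1.66 (D against R), 0.00 to 1.97 (D against Y) and -0.95 to 0.77 (R against Y), *Pgm* from 0.38 to 1.37, 0.14 to 1.80 and -0.36 to 0.63, *Gapdh1* from 0.40 to 1.71, -0.68 to 0.73 and -2.0 to -0.69, and *Gapdh2* from -0.64 to 0.68, -0.88 to 0.74 and -0.36 to 0.47, in the same order. Called genes ranged from 0 to 17, 0 to 13 and 0 to 21, called probes of the 4 genes from 0 to 6, other energy and nutrient genes from 0 to 2 and housekeeping genes from 0 to 1. VSN on the processed intensity, the plain probe average, the deposited table without replicate 40 and leaving out arrays on the 75th percentile scale were chosen after seeing the data. The probes of the 4 genes were well above background on every array. The value of the dim *Pgm* probe still varied with the processing. Its D against R difference was 0.66 with VSN and 0.86 with normexp and the 75th percentile, both uncalled. With the 75th percentile alone it was 1.17 and called. Precision was limited by 3 arrays per group.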

Other observations

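The difference between 2 of the 4 genes on the same array is free of a scaling factor of that array on the 75th percentile scale. With VSN, which compresses low intensities, it is not wholly free of it for the dim *Pgm* probe. *Pgm* minus *Gapdh2* on the VSN log2 scale was -3.03, -2.70 and -2.60 in diapausing females, -3.67, -3.32 and -4.08 in reproducing females and -3.71, -3.61 and -3.73 in young females, so that all diapausing arrays lay above all others. The groups differed by 0.91 against both reproducing and young females with VSN, and by 0.87 and 1.05 with the 75th percentile. *Pgm* minus *Gapdh1* was higher in diapausing than in young females by 0.76 with VSN and 0.93 with the 75th percentile, and in reproducing than in young females by 1.30 and 1.20, without overlap in either case. *Adh* minus *Gapdh1* was higher in reproducing than in young females by 1.18 and 1.24, also without overlap. These were chosen after their values were seen, out of 18 comparisons of 6 pairs of genes, 7 of which had no overlap in the same direction on both scales. Over all pairs of genes on the array the same held for 4005 of 17334 pair comparisons (23.1%), which share genes and arrays. The *Gapdh2* probes are complementary to the mRNA and the *Pgm* probe appears to be. Differences that involve *Gapdh2* or *Pgm* are therefore not read as ratios of mRNA levels. With 3 arrays against 3, the exact two-sided permutation test cannot go below 0.10, which is the value for each of those named here. The size of each difference of levels between 2 genes carries no meaning of its own, since their probes differ.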
